A study of Mus musculus with 23 samples.

Results

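The retinoid-binding proteins and receptors described here are Crabp1, Crabp2, Rara and Rarg. They are 4 of the 8132 genes named on the arrays and were measured by 4 of 12502 probe sets, 1 for each gene. The set was chosen by the intensities of Crabp2 across the line and plasmid groups, so the values of Crabp2 are given as a description, with no test. Its paralogue Crabp1 and the receptors Rara and Rarg were set beside it and were tested. All 4 probe sets passed the filter on low values, Crabp2 through the arrays in which it was bright.

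Mouse embryonic stem (ES) cells, pluripotent cells cultured from early embryos, were transfected with 1 of 3 plasmids, and total RNA was taken 72 hours later. The plasmids were SRF-VP16, which joins the transcription factor SRF (serum response factor) to the activation domain of the viral protein VP16, then SRFdM-VP16, labelled as its control, and an empty vector. The labels do not spell out what dM changes. Each plasmid went into the -/- lines E81 and E100, the +/- line E99 and wild-type E14 cells, which gave 12 groups on 23 arrays. Which gene +/- and -/- refer to is not in the labels, and each of these genotypes rests on 1 or 2 named lines, so genotype and line cannot be told apart within E99 or wild type. Each group had 2 arrays except E100 with vector, which had 1. Nothing in the labels says that duplicates were separate cultures, so a p-value here covers only the spread among these samples, whose small number limits how precise any estimate can be.

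Retinoic acid, the active form of vitamin A, drives ES cells out of pluripotency and patterns the embryo. It is carried inside the cell by small binding proteins. CRABP2 hands retinoic acid to receptors in the nucleus, while CRABP1 holds it in the cytoplasm and is linked to its breakdown. The receptors, among them RARA and RARG, pair with retinoid X receptors (RXRs) on DNA and switch target genes when retinoic acid binds.

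Promoter windows from RefSeq (build GRCm38.p6) were read for the members and for the genes whose pattern was most like that of Crabp2, because SRF is known to bind a short element, the CArG box, and retinoid receptors recognise copies of AGGTCA. Windows matched 3 of the 4 members, with 7 starts in all, and Crabp2 was not among them. The 250 bases before the start are printed 5′ to 3′ on the strand of the gene for Crabp1, the paralogue of Crabp2, for Rarg, and for Tnnc1, the gene closest to Crabp2 in pattern. Capitals mark a CArG box, AGGTCA or TATAAA on either strand.
Crabp1, chr9:54764498-54764747, plus strand: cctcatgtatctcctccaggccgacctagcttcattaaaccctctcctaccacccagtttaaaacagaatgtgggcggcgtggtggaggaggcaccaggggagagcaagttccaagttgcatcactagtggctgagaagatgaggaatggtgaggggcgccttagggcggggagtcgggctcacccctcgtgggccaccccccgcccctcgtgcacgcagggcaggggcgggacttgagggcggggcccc
Rarg, chr15:102257523-102257772, minus strand: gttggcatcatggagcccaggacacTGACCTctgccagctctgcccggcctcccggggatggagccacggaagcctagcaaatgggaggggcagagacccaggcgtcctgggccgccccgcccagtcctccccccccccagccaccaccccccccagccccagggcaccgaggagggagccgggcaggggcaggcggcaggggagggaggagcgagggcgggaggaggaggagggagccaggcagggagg
Tnnc1, chr14:31208062-31208311, plus strand: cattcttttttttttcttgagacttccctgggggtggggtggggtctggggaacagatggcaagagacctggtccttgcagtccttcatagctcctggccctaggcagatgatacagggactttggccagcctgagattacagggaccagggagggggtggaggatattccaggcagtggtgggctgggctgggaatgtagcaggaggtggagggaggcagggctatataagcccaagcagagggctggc
In these 300-base windows, which add 50 bases past the start, a CArG box was found in 0 of 7 member windows, against 1.63% of 32851 windows of all genes. AGGTCA was found in 2 of the 7, against 16.3% of all windows. In Rarg it lay on the opposite strand at position -225, counted from the start, read as TGACCT in the capitals above. GGGCGG, the core of a GC box, was found in 5 of the 7, against 35.7%, but a pair of Rara windows overlap almost in full and hold the same 4 matches, so that stretch is counted more than once. TATAAA was found in 0 of the 7, against 13.6%. These matches describe letters in a window and say nothing of binding.

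The values are the deposited linear intensities, of which 29.1% were at or below 0, so an intensity near or below 0 means no signal above background. For changes on the log2 scale, values under 58, the 40th percentile of the table, were set to 58, and "at least" marks a change against arrays all at that floor. Array medians ran over 53.5 to 207, and the share of values at or below 0 ran over 23.5% to 43.6%. The array of E81 with SRFdM-VP16 numbered 1 stood apart, with the highest share at or below 0 and the lowest log2 ratio of 5′ to 3′ Gapdh signal, -0.93. The wild-type control arrays numbered 2 also stood apart, with Acta2 intensities of 7302 with SRFdM-VP16 and 7463 with vector, against -52 and -242.3 on the arrays numbered 1. At least 12 of 14 ES cell markers were above the floor on all arrays of every group, while Dppa3 was at it in -/- cells with SRFdM-VP16 or vector. Pou5f1 ran over 5994 to 22064 in -/- cells with SRF-VP16 and over 15730 to 29982 in -/- cells with SRFdM-VP16.

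Crabp2 was bright in both -/- lines with SRF-VP16 and at or near background elsewhere. In E81 cells it had intensities of 1559 and 2037 with SRF-VP16, against -125 and -53 with SRFdM-VP16 and -77 and 39 with vector. In E100 cells it had 1905 and 1169 with SRF-VP16, against 131 and 63 with SRFdM-VP16 and 39 with vector. All 4 SRF-VP16 arrays of the -/- lines lay far above all 7 control arrays of the same lines. Over all probe sets, 4.92% showed 4 SRF-VP16 arrays above the 4 SRFdM-VP16 arrays of the -/- lines with no overlap.

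In the lines with a wild-type allele Crabp2 stayed near background with every plasmid. E99 cells had Crabp2 intensities of 109 and 60 with SRF-VP16, against -1 and -61 with SRFdM-VP16 and -3 and 55 with vector. Wild-type cells had 128 and 69 with SRF-VP16, against 13 and 118 with SRFdM-VP16 and -25.8 and 11 with vector. The SRF-VP16 arrays of E99 lay just above the control arrays, while those of wild type overlapped the SRFdM-VP16 arrays.

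On the log2 scale Crabp2 was higher by 4.49 with SRF-VP16 than with SRFdM-VP16 in the -/- lines, a 22.5-fold rise, with 2 of the 4 SRFdM-VP16 arrays set to the floor, that ranked 23 among the rises of 9653 probe sets tested. The mean intensity was 1668 ± 388.7 with SRF-VP16 and 4 ± 114.7 with SRFdM-VP16 (SD, n = 4 each). In E81 the rise was at least 30.7-fold against either control. In E100 it was 16.4-fold against SRFdM-VP16 and at least 25.7-fold against vector. The change was 0.48 in E99, 0.18 in wild type and 2.41 over all lines. The difference in the SRF-VP16 effect between the -/- lines and wild type was 4.31, which ranked 9 among the positive differences. Leaving out E81 SRFdM-VP16 replicate 1 could not move the 4.49, because both arrays of that group were set to the floor. Without the wild-type control arrays numbered 2 the change in wild type was 0.70.

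Ordered by mean intensity, E81 with SRF-VP16 (1798 ± 338, SD, n = 2) and E100 with SRF-VP16 (1537 ± 520.4, SD, n = 2) came first and overlapped each other. A gap followed, and the other 10 groups, led by wild type with SRF-VP16 (98.5 ± 41.72, SD, n = 2), each overlapped the next. With the control plasmids Crabp2 differed by -0.09 between the -/- lines and wild type, and SRFdM-VP16 and vector differed by 0.29.

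**Figure D1:**
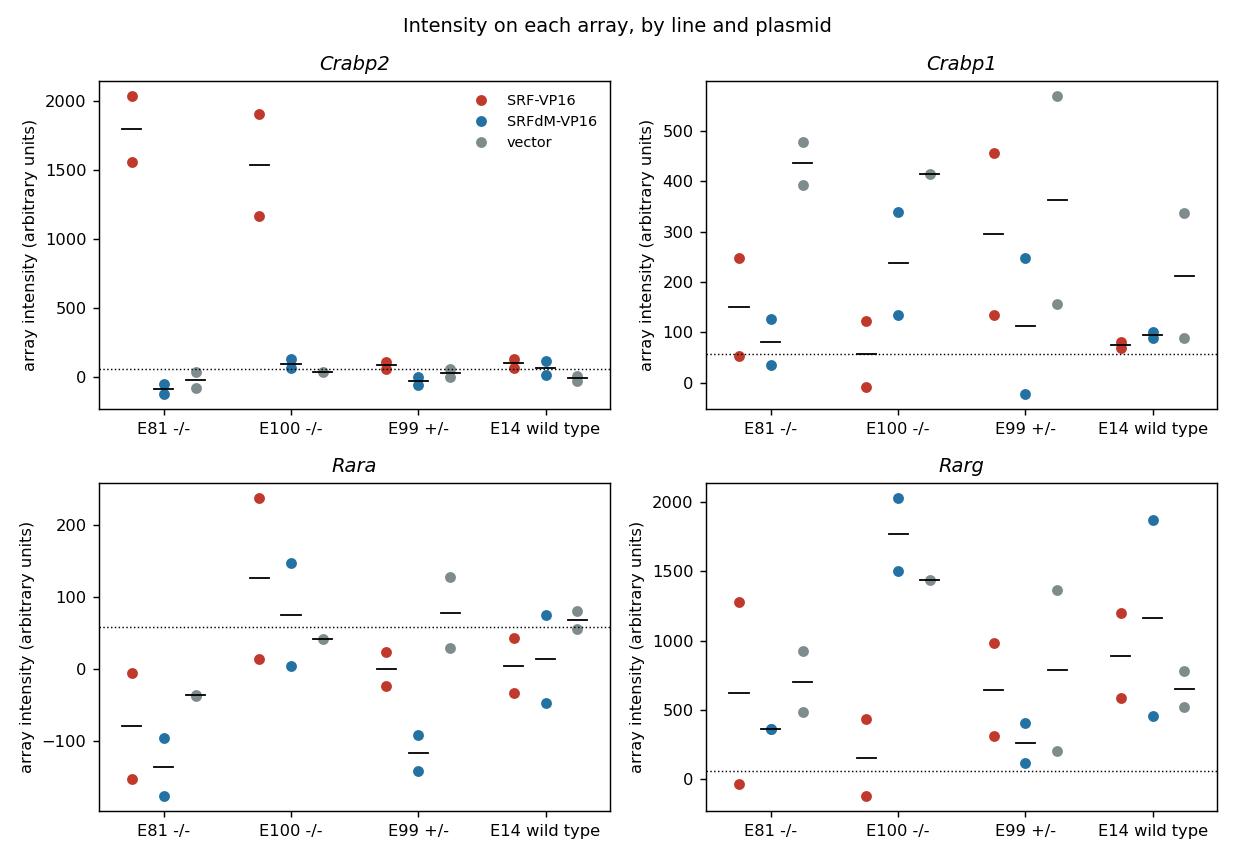
Intensity of the 4 genes on each of 23 arrays (vertical axis, arbitrary units, linear), by line and, within each line, SRF-VP16, SRFdM-VP16 and vector. Points are arrays, bars are group means and the dotted line is the floor of 58. Crabp2 lies between 1169 and 2037 in the -/- lines with SRF-VP16 and at or below 131 on every other array, while the other 3 genes show no such split.

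Some markers of other cell types differed between the same arrays, and the counts below are of markers past the test in the -/- lines, where 2.47% of all probe sets were higher and 0.342% lower. An unadjusted p under 0.05 (limma) was found there for 13.4% of all probe sets. Of 7 smooth muscle and myofibroblast markers 4 rose (Acta2, Tagln, Myl9 and Actg2), and the summed intensity ran over 46287 to 63059 with SRF-VP16 and over 2513 to 7907 with SRFdM-VP16. The probe set of Actg2 may also bind similar transcripts, and it already had 1658 to 6201 with SRFdM-VP16. Of 9 trophoblast markers kept, 5 rose, namely Tpbpa and the keratins Krt7, Krt8, Krt18 and Krt19. Tpbpa was near background, above the floor on 2 of 4 SRF-VP16 arrays, both of E100 (153 and 235). It was above the floor on 0 of 4 SRFdM-VP16 arrays. The sum of trophoblast markers ran over 12829 to 38245 with SRF-VP16 and over 1109 to 5294 with SRFdM-VP16. Of 14 primitive endoderm markers, only the collagens Col4a1 and Col4a2 rose, the median log2 change was 0.20, and sums ran over 36494 to 51484 with SRF-VP16 and 16232 to 33332 with SRFdM-VP16. Of 7 neurectoderm markers, only Nes rose, with 1216 to 3889 with SRF-VP16 and 234 to 388 with SRFdM-VP16, and the median was 0.26. Among 14 ES cell markers 0 rose, 1 fell, 6 had an unadjusted p under 0.05 and the median was -0.54. The one that fell, Fgf4, ran over 2771 to 5720 with SRF-VP16 and over 6929 to 12031 with SRFdM-VP16, lower by -1.15 ± 0.22 (limma, adjusted p = 0.0118). The sums of ES cell markers overlapped, at 42739 to 72322 with SRF-VP16 and 59325 to 126714 with SRFdM-VP16. Of fibroblast and mesoderm markers 0 of 12 and 0 of 5 passed (limma), with 2 and 0 at an unadjusted p under 0.05. In all 4 SRF-VP16 arrays 7 of 13 fibroblast markers on the array were above the floor and Col3a1, Pdgfrb and Postn were at it. Of 16 endoderm markers 10 were above it and Ttr, Hnf4a and Foxa2 at it, and of 10 trophoblast markers 6 were above it and Hand1 at it. The part of these cell types in the rise of Crabp2 was not tested, and in bulk RNA more cells of a type and more RNA per cell cannot be told apart.

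The genes most like Crabp2 were those with the highest Pearson correlation of log2 intensity over the 12 group means, given with no p because the points share arrays and lines. Of 8085 probe sets compared, each with 1 gene symbol, 76 had a correlation above 0.9. Tnnc1, the calcium-binding troponin C of cardiac and slow muscle, had 0.98 over groups and 0.95 over the 23 arrays. Its intensity ran over 337 to 2011 in -/- cells with SRF-VP16 and over -207 to 66 on all other arrays. Crct1, whose probe set may also bind similar transcripts, had 0.98 and 0.91, with intensities of 1131 to 5880 in -/- cells with SRF-VP16 and -47 to 259 elsewhere. Tns2, a tensin of focal adhesions, had 0.98 and 0.87, with intensities of 67 to 188 in -/- cells with SRF-VP16 and -146 to 80 elsewhere. Rbp4, the carrier of retinol in blood, had 0.98 over groups but 0.64 over arrays, and ran over -106 to 299 in -/- cells with SRF-VP16 and -427 to -32 elsewhere. Adcyap1r1, a neuropeptide receptor, had 0.97 and 0.69. It was near background, over -61 to 169 in -/- cells with SRF-VP16 and -96 to 53.5, under the floor, elsewhere. On the log2 scale Rbp4 and Adcyap1r1 were thus at the floor on every array outside -/- cells with SRF-VP16. Their correlations over groups rest only on the groups in which Crabp2 was bright, where Rbp4 was above the floor on 2 of 4 arrays. Promoter windows were found for 4 of these 5 genes, and a CArG box in 0 of their 5 windows.

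Crabp1 did not follow Crabp2. In E81 cells Crabp1 had intensities of 53 and 248 with SRF-VP16, against 36 and 127 with SRFdM-VP16 and 479 and 393 with vector. In E100 cells it had 123 and -9 with SRF-VP16, against 340 and 134 with SRFdM-VP16 and 415 with vector. The vector arrays of both -/- lines were the highest of their lines, and SRF-VP16 and SRFdM-VP16 overlapped in E81 but not in E100. In E99 cells Crabp1 had 457 and 134 with SRF-VP16, against -23 and 247 with SRFdM-VP16 and 156 and 570 with vector. In wild-type cells it had 80 and 69 with SRF-VP16, against 100 and 88 with SRFdM-VP16 and 336.5 and 89 with vector. SRF-VP16 lay just below SRFdM-VP16 in wild type, duplicates were often far apart, and along the order of the 12 groups every neighbouring pair overlapped.

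In the -/- lines Crabp1 differed by -0.43 ± 0.69 (log2 ± SE) between SRF-VP16 and SRFdM-VP16, with a 95% interval of -1.91 to 1.06 (limma, adjusted p = 0.878). This interval leaves out a rise of the size seen for Crabp2. Crabp1 differed by 1.05 ± 0.98 in E99 and by -0.34 ± 0.98 in wild type (limma, adjusted p = 1 in each). Between the control plasmids Crabp1 was lower with SRFdM-VP16 by -1.37 ± 0.52, with a 95% interval of -2.49 to -0.26, and this missed the threshold (limma, adjusted p = 0.247). Crabp1 averaged 131.1 ± 115.1 with SRFdM-VP16 (SD, n = 8) and 348.4 ± 171.8 with vector (SD, n = 7). In that comparison 0.798% of probe sets passed, and the median change of all probe sets was -0.20. Against vector, Crabp1 in the -/- lines with SRF-VP16 was lower by -2.08 ± 0.77 (limma, adjusted p = 0.184). The control used therefore moved the estimate by more than its standard error, without a call under either.

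Rara, which encodes the alpha receptor, was at or near background throughout, with 5 of 23 arrays above the floor. In E81 cells it had -5 and -153 with SRF-VP16, against -176 and -96 with SRFdM-VP16 and -37 and -36 with vector. In E100 cells it had 238 and 14 with SRF-VP16, against 147 and 4 with SRFdM-VP16 and 42 with vector. The first array of each E100 pair was the only one above the floor. In E99 cells Rara had -24 and 24 with SRF-VP16, against -141 and -91 with SRFdM-VP16 and 29 and 128 with vector. In wild-type cells it had -33 and 43 with SRF-VP16, against -47 and 75 with SRFdM-VP16 and 80.2 and 56 with vector. Ordered by mean intensity, E100 with SRF-VP16 came first, and neighbours in the order overlapped except that E99 with SRF-VP16 lay above E81 with vector, and wild type with vector above E100 with vector, all near the floor or below it. No group had both arrays above the floor, so a change in Rara was not measurable over most of its range. In the -/- lines the difference was 0.17 ± 0.38 (95% interval -0.65 to 1.00, limma, adjusted p = 0.927).

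Rarg, which encodes the gamma receptor, was above the floor on 21 of 23 arrays. In E81 cells it had 1274 and -31 with SRF-VP16, against 363 and 361 with SRFdM-VP16 and 482 and 923 with vector. In E100 cells it had 433 and -120 with SRF-VP16, against 2029 and 1500 with SRFdM-VP16 and 1434 with vector. Both arrays below the floor were thus SRF-VP16 arrays of the -/- lines, 1 in each line, but the other E81 array was among the brighter ones. In E99 cells Rarg had 984 and 310 with SRF-VP16, against 118 and 408 with SRFdM-VP16 and 204 and 1367 with vector. In wild-type cells it had 583 and 1197 with SRF-VP16, against 1867 and 457 with SRFdM-VP16 and 778.6 and 519 with vector. The plasmids overlapped in E99 and in wild type.

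In the -/- lines Rarg was lower with SRF-VP16 by -1.94 ± 0.97, with a 95% interval of -4.02 to 0.15, and did not pass the test (limma, adjusted p = 0.423). In E100 alone it was lower by -3.46 ± 1.37, 11.0-fold, and the arrays did not overlap (limma, adjusted p = 0.309). In E81 alone the difference was -0.41 ± 1.37. The difference between the lines, 3.05 ± 1.93, did not pass either (limma, adjusted p = 0.532), in a comparison where the median of all probe sets was 0.52. The difference in effect between the -/- lines and wild type was -1.79 ± 1.67 (limma, adjusted p = 1). By mean intensity E100 with SRFdM-VP16 (1764 ± 374.1, SD, n = 2) came first and did not overlap the next group, while each pair of neighbours below it did.

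In all, 0 of the 3 tested members passed in the -/- lines, where 2.81% of 9653 probe sets passed at an adjusted p under 0.05 and 1295 had an unadjusted p under 0.05. None of the 3 passed in wild type, where 0.0207% passed, in E99 (0.0414%) or over all lines (1.98%, with 1.81% higher). Over all lines the changes were -0.04 ± 0.49 for Crabp1, 0.04 ± 0.27 for Rara and -0.67 ± 0.68 for Rarg. Between -/- lines and wild type with the control plasmids, where 0.0829% passed, Crabp1 differed by 0.91 ± 0.62, Rara by -0.04 ± 0.35 and Rarg by 0.20 ± 0.87. Without E81 SRFdM-VP16 replicate 1 the changes in the -/- lines were -0.71 ± 0.78 for Crabp1, 0.17 ± 0.45 for Rara and -1.93 ± 1.13 for Rarg. The change of Rara could not move, because both arrays of that group were at the floor for it. Without the wild-type control arrays numbered 2 those in wild type were -0.43 ± 1.21 for Crabp1, 0.00 ± 0.71 for Rara and -1.16 ± 1.76 for Rarg. None passed in the 2 comparisons of effects either, with backgrounds of 0.0829% between genotypes and 0.155% between E81 and E100.

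**Figure D2:**
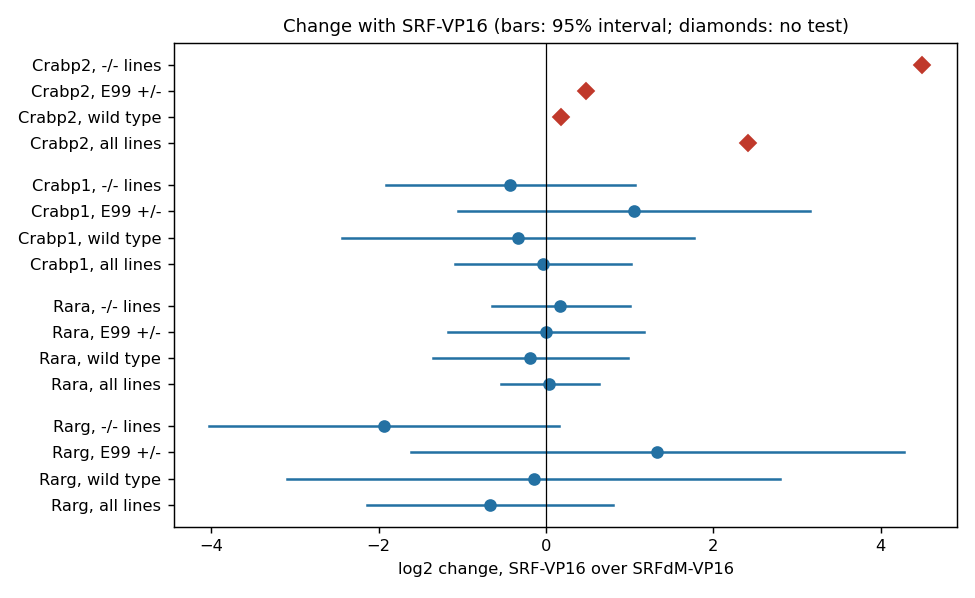
Log2 change with SRF-VP16 over SRFdM-VP16 (horizontal axis) for each gene in the -/- lines, E99, wild type and over all lines. Circles carry 95% intervals from limma, and the diamonds of Crabp2 carry none because it was not tested. Crabp2 sits at 4.49 in the -/- lines, and every interval of the other genes includes 0.

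The spread between duplicates differed among the members. The median absolute log2 difference of duplicates was 1.67 for Rarg and 1.34 for Crabp1, against 0.39 for Crabp2 and 0.41 over all probe sets kept. Rarg duplicates differed by more than 1 in 7 of 11 pairs. Rxrb, a retinoid X receptor, had a median of 1.11, and it was higher on the same array of the pair as Rarg in 10 of 11 pairs. Among these was E81 with SRFdM-VP16, where Rarg differed by only 0.01. Rxra, another retinoid X receptor, also went with Rarg in every pair except wild type with SRF-VP16. The 5′ to 3′ Gapdh ratio was higher on the same array as Rarg in 9 of 11 pairs, and its part in the spread of Rarg was not tested. Crabp1 went with Rarg in 7 of 11 pairs. The share of all probe sets that went with Rarg in this way was not counted, so these counts do not set any gene apart.

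**Figure D3:**
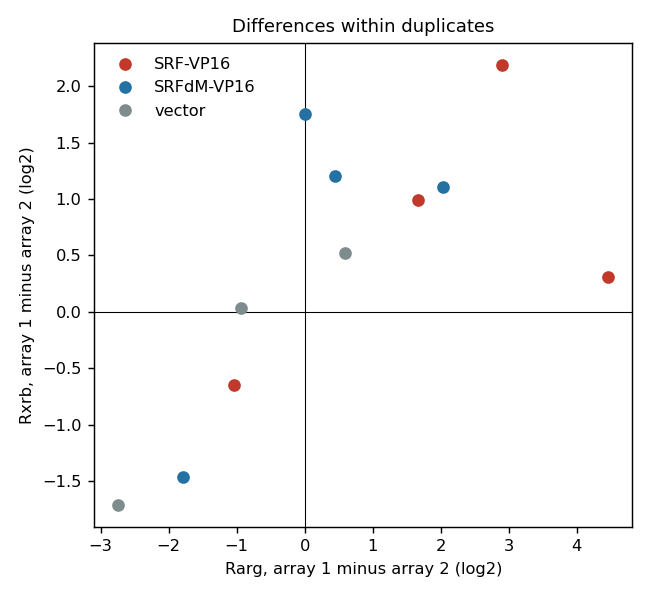
Array 1 minus array 2 on the log2 scale for Rarg (horizontal axis) and Rxrb (vertical axis), 1 point for each of the 11 groups with duplicates, coloured by plasmid. In 10 of the 11 groups both genes were higher on the same array, so these points lie in the lower left and upper right. The share of all probe sets that do so was not counted.

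The genes most like Rarg over the group means were Phf5a and Strada (0.95 each) and Pdap1 (0.93). Over the 23 arrays these correlations were 0.82, 0.54 and 0.75. For Crabp1 the closest, Atp2b2, Rer1 and Myo1f, had 0.91 over groups and 0.31 to 0.56 over arrays. For Rara they were Sult5a1, Igll1 and Gpx7, with 0.91 to 0.94 over groups. These gene names only describe likeness across 12 means.

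The rest of the retinoid pathway was read from 6 lists of 89 genes, of which 62 were on the array and 53 were kept. In the -/- lines 3 of the 53 rose, 0 fell and 10 (18.9%) had an unadjusted p under 0.05, against 13.4% of all probe sets. Over all probe sets 2.47% were called higher, and the median log2 change was 0.03 over the 53 genes and 0.05 over 6818 named genes. All 3 were in the list of retinoic acid response genes, of which 20 of 29 were measured, with a median of 0.46. In the lists of other receptors (3 measured), binding and transport (3), Fabp relatives of the CRABPs (7), metabolism (13) and cofactors (7), 0 genes passed.

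Bhlhe40, a basic helix-loop-helix repressor first isolated as a gene induced by retinoic acid, had 2773, 5196, 2209 and 2696 in -/- cells with SRF-VP16, against -22, 186, 369 and 634 with SRFdM-VP16. The arrays did not overlap, and Bhlhe40 rose by 3.76 ± 0.49, 13.6-fold (limma, adjusted p = 0.000908). Zfp703, a zinc-finger corepressor, had 1178, 909, 1866 and 814 with SRF-VP16, against -12, 131, 307 and 275 with SRFdM-VP16. It rose by 2.83 ± 0.59, 7.10-fold (limma, adjusted p = 0.0185). It lost its call without any 1 of 6 arrays, namely both E81 SRF-VP16 arrays, both E100 SRFdM-VP16 arrays, E100 SRF-VP16 replicate 1 and E81 SRFdM-VP16 replicate 1, where it was 2.53 to 2.92 with limma's adjusted p of 0.0518 to 0.0777. Col4a1, a basement membrane collagen that is also a marker of primitive endoderm, had 9917, 5478, 14705 and 5250 with SRF-VP16, against 609, 690, 4204 and 1411 with SRFdM-VP16. It rose by 2.68 ± 0.55, 6.41-fold (limma, adjusted p = 0.0168). It lost its call without E81 SRF-VP16 replicate 1, E100 SRF-VP16 replicate 1, E81 SRFdM-VP16 replicate 1 or E100 SRFdM-VP16 replicate 2, where it was 2.29 to 2.63 with limma's adjusted p of 0.0605 to 0.0843. All 3 are genes that respond to other signals as well as retinoic acid.

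In wild type and in E99, 0 of the 53 genes passed (limma), with an unadjusted p under 0.05 for 2 in wild type (3.77%) and 4 in E99 (7.55%), against 3.57% and 4.5% of all probe sets. Bhlhe40 differed there by 1.25 ± 0.69 in wild type and 1.00 ± 0.69 in E99. Over all lines the same 3 genes passed, with changes of 2.45 ± 0.34, 1.97 ± 0.42 and 2.26 ± 0.39 for Bhlhe40, Zfp703 and Col4a1. Zfp703 lost this call without any 1 of 11 of the 16 arrays compared, where it was 1.77 to 2.02 with limma's adjusted p of 0.0539 to 0.0815, and kept it without E100 SRF-VP16 replicate 2, E81 SRFdM-VP16 replicate 2, E99 SRFdM-VP16 replicate 1 or the arrays numbered 2 of wild type with SRF-VP16 or SRFdM-VP16. Bhlhe40 did not pass in E100 alone (2.33 ± 0.69, limma, adjusted p = 0.142), nor over all lines with vector as the control (1.39 ± 0.37, limma, adjusted p = 0.0803). The difference between the -/- lines and wild type passed for 0 of the 53 genes, and was 2.51 ± 0.84 for Bhlhe40 (limma, adjusted p = 0.646).

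The RXR partners and the classic indicators of retinoic acid signalling gave these values. Rxra, by its brighter probe set, had a median of 610.5 in -/- cells with SRF-VP16 and 710 with SRFdM-VP16, a difference of -0.24 ± 0.27, and its other probe set gave -0.03. Rxrb had medians of 787 with SRF-VP16 and 869 with SRFdM-VP16, a difference of -0.69 ± 0.58. Rxrg was below 0 on every array. Cyp26a1, the retinoic acid hydroxylase that retinoic acid itself induces, had medians of 102 with SRF-VP16 and 128 with SRFdM-VP16, a difference of 0.04 ± 0.26. Hoxb1, a homeobox target of the receptors, differed by 0.42 ± 0.33, and Fabp5, a fatty-acid-binding protein related to the CRABPs, by 0.30 ± 0.48. None of these passed against SRFdM-VP16 (limma, adjusted p of 0.661 or higher). Cyp26a1 and Hoxb1 were close to the floor, and how they compared depended on the control. In -/- cells with SRF-VP16 both were above the floor on 4 of 4 arrays, at 87 to 186 and 66 to 209. With SRFdM-VP16 each was above it on 3 of 4 arrays, at -88 to 180 and 49 to 161. With vector each was above it on 0 of 3 arrays, at 13 to 56 and -36 to 34. No test against vector is given for either gene. Aldh1a2, which makes retinoic acid, and Stra6, a retinol transporter, were above the floor on 0 arrays.

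**Figure D4:**
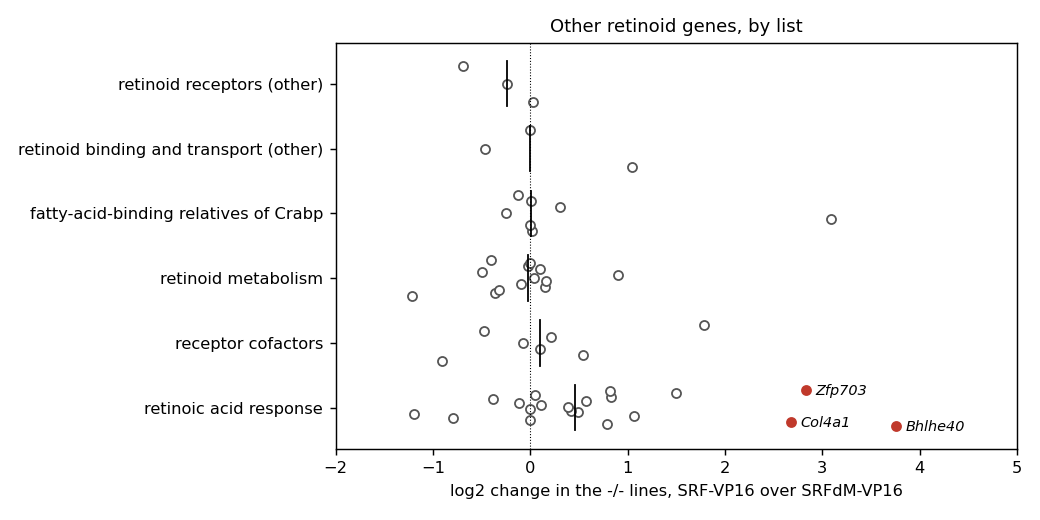
Log2 change in the -/- lines, SRF-VP16 over SRFdM-VP16 (horizontal axis), of the 53 measured genes of 6 retinoid lists. Each circle is a gene, bars are list medians, and filled circles are the genes that passed at an adjusted p under 0.05. Only Bhlhe40, Zfp703 and Col4a1 are filled.

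Between the control plasmids, 0.798% of probe sets passed, and of the 53 pathway genes 0 were higher and 1 was lower with SRFdM-VP16, against 0.767% of all probe sets lower. That gene was Aldh1a7, a retinal dehydrogenase relative, lower by -0.61 ± 0.12 (limma, adjusted p = 0.0342). Its intensities ran over -81 to 62 with SRFdM-VP16 and 2 to 153 with vector, close to the floor, and the call held in 8 of 23 other settings.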

How the data were processed

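Total RNA of 23 samples was measured on arrays, and the authors deposited a table with a linear intensity for every probe set on every array. How they subtracted background or scaled is not given in the sources used here, and values were used as deposited. Intensities under a floor of 58 (the 40th percentile of all values) were set to it and log2 was taken. The 66 control probe sets were left out, and 9653 probe sets stayed after the removal of 2783 that exceeded the 40th percentile of an array fewer than 2 times.

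Genes were named from the platform annotation, in which 10141 probe sets had 1 symbol, 362 several and 1933 none; 10122 of the single symbols matched RefSeq. For genes with more than 1 probe set the brightest was used. The tests were made in R 4.3.3 with limma 3.58.1. A single model held all 12 groups on 23 arrays (11 residual degrees of freedom), with trended, moderated variances, two-sided tests and Benjamini-Hochberg adjustment over all 9653 probe sets at 5%. The procedure was tested on simulated data. Groups came from the sample titles.

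The members and gene lists were chosen with earlier results of these data known. Named were the members, up to 4 genes per list past the threshold, a set of classic retinoid genes where measured, and the genes most like each member. Alternatives were quantile normalization, division by the array median, an inverse hyperbolic sine, a higher floor (60th percentile), other filters, no intensity trend, a replicate block, vector as the control, single lines, only the arrays compared, and leaving out each array.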

Additional observations from a re-analysis of the deposited data

How the results depend on the processing

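Crabp2 in the -/- lines was 4.49 higher with SRF-VP16, and under the alternatives it was 2.45 with a floor at the 60th percentile, 5.75 with an inverse hyperbolic sine, 4.94 in E81 alone and 4.04 in E100 alone, with 4.23 to 4.75 when 1 array was left out. Its difference between the -/- lines and wild type was 2.45 with the higher floor, 5.13 with the inverse hyperbolic sine and 3.79 without both wild-type control arrays numbered 2 (3.79 to 4.82 without single arrays). Its difference between E81 and E100 was 0.44 after quantile normalization, 0.26 with the higher floor or with vector as the control and 3.74 with the inverse hyperbolic sine (0.38 to 1.43 without single arrays). In E99 it was 0.00 with the higher floor and 2.33 with the inverse hyperbolic sine (0.05 to 0.91 without single arrays). In wild type it was 0.70 with vector as the control or without both arrays numbered 2 (-0.33 to 0.70 without single arrays), and over all lines 1.22 with the higher floor and 3.61 with the inverse hyperbolic sine (2.28 to 2.54 without single arrays). The size of the Crabp2 changes therefore depends on how values near background are treated. Under none of 496 settings did Crabp1, Rara or Rarg pass the test, with a lowest adjusted p of 0.112, so their changes of sign are among values that did not pass. Crabp1 changed sign in the -/- lines in E81 alone (0.48; -0.95 to 0.10 without single arrays), in E99 with vector as the control (-0.27), and over all lines with the higher floor (0.05) and the inverse hyperbolic sine (0.06; -0.30 to 0.23 without single arrays); its difference between the -/- lines and wild type ran over -0.62 to 0.43 without single arrays. Rara changed sign between -/- lines and wild type after quantile normalization (0.02), with the replicate block (0.58), in E100 alone (0.13) and with SRFdM-VP16 arrays alone (0.15; -0.21 to 0.13 without single arrays), between E81 and E100 with the inverse hyperbolic sine (0.50; -1.37 to 0.67 without single arrays), and between SRFdM-VP16 and vector with the inverse hyperbolic sine (-1.45) and the replicate block (-0.20; -0.21 to 0.18 without single arrays). Without single arrays Rara ran over -0.34 to 0.68 in the -/- lines, -0.21 to 0.30 over all lines and -0.15 to 0.87 for the difference between genotypes. Rarg changed sign between -/- lines and wild type in E81 alone (-0.64), with SRFdM-VP16 arrays alone (-0.22) and without both arrays numbered 2 (-0.45; -0.31 to 0.71 without single arrays), in wild type with vector as the control (0.39; -1.16 to 0.87 without single arrays), and between SRFdM-VP16 and vector after division by the array median (0.29; -0.67 to 0.01 without single arrays). The count of pathway genes that passed in the -/- lines, 3, was 1 in E81 alone, 0 in E100 alone and 1 with only the arrays compared, with 1 to 5 without single arrays; it ran over 0 to 1 in E99 and 0 to 2 in wild type without single arrays. Replicate numbers did not pair the arrays over all lines, since 6 of 10 pairs of groups correlated above 0.1, over -0.35 to 0.42. All 4 within the -/- lines did (0.25 to 0.31), while the 4 that held SRF-VP16 arrays of wild type or E99 ran over -0.35 to -0.25. With the replicate block in every line the -/- count stayed 3 and Rarg was -1.94. With a replicate block in the -/- lines alone, chosen after seeing the data, the count was 3 again, of the same genes, and Crabp1 (-0.43 ± 0.65), Rara (0.17 ± 0.22) and Rarg (-1.94 ± 0.94) did not pass (limma, adjusted p of 0.348 or higher). The cause of these changes was not tested. Signal near background limits what can be read for Rara and for Crabp2 outside the -/- lines with SRF-VP16.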

Other observations

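Among the pathway genes that missed the threshold, 4 with large changes in the -/- lines were picked after their values were seen. Nrip1, a corepressor of nuclear receptors, ran over 393 to 700 with SRF-VP16 and -10 to 287 with SRFdM-VP16, a difference of 1.78 ± 0.54 (limma, adjusted p = 0.116). Fabp3, the fatty-acid-binding protein of heart and muscle and a relative of the CRABPs, ran over 2455 to 19992 with SRF-VP16 and 38 to 4441 with SRFdM-VP16, a difference of 3.09 ± 1.37 (limma, adjusted p = 0.341). The ranges of Fabp3 overlapped. It was higher with SRF-VP16 in 4 of 4 pairs of arrays with the same line and replicate number. So were Nrip1 and Rbp4, whose ranges did not overlap and so could give no other count, with Dhrs3 in 3 of 4. The share of all probe sets was not counted, so these counts do not set any gene apart. With a replicate block in the -/- lines alone, chosen after seeing the data, Fabp3 was 3.09 ± 0.94 (limma, adjusted p = 0.11). Rbp4 differed by 1.04 ± 0.41 (limma, adjusted p = 0.27), with 2 of 4 SRF-VP16 arrays and 0 of 4 SRFdM-VP16 arrays above the floor. Dhrs3, a retinal reductase, differed by 0.90 ± 0.34 (limma, adjusted p = 0.241).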
